A study of Homo sapiens with 3 samples.

Results

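The nuclear-encoded respiratory chain genes were taken as every gene on the array whose symbol begins with NDUFA, NDUFB, NDUFC, NDUFS, NDUFV, UQCR, SDHA to SDHD, COX4 to COX8, CYC1 or ATP5. Assembly factors, NDUFA4L2, antisense or divergent long non-coding RNAs and pseudogenes were left out, and only probe sets that the platform annotation assigns to exactly 1 gene were used. The rule gave 152 probe sets for 78 genes, of 54613 non-control probe sets and 19777 genes on the array. Of the 78 genes, 73 had a probe set above the median log2 signal of all non-control probe sets (5.13), a filter that 12444 genes passed. Some subunits had no gene-specific probe set and were not analysed here, so the complexes are described by the subunits measured.

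The study set HT29 cells, a human colon adenocarcinoma line, that had received a miR-146a expression construct by lentivirus against HT29 cells that had received the empty vector by the same route. Both were grown in DMEM with fetal bovine serum and no other agent is named in the labels. There were 2 arrays for miR-146a and 1 for the vector, each hybridised with biotin-labelled cRNA made from total RNA. The vector array has no replicate, all differences share it, and nothing in the labels ties the miR-146a arrays to separate cultures. The p-values therefore measure only how far those arrays spread, and that spread may be technical. Whether the transduced cells were a clone or a pool, and which promoter drives the construct, is not given in the labels.

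The respiratory chain sits in the inner mitochondrial membrane. Complex I takes electrons from NADH and complex II takes them from succinate; complex III passes them on to cytochrome c, and complex IV hands them to oxygen. The proton gradient built on the way drives ATP synthesis by complex V. Most subunits are encoded in the nucleus and imported, and a small set, made from mitochondrial DNA, is built into complexes I, III, IV and V. Many nuclear subunit genes are known targets of the transcription factor NRF1 (nuclear respiratory factor), which binds a GC-rich palindrome. miR-146a is a microRNA best known for dampening signalling through Toll-like and interleukin receptors.

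The mature microRNA is shown because it is what the construct adds to the cells. The sequence is RefSeq's (GRCh38.p14, chr5:160485372-160485393, plus strand), with the seed, bases 2 to 8, in capitals.
hsa-miR-146a-5p: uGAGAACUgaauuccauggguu

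Promoter stretches of 6 members are shown because they carry the NRF1 palindrome, which was more frequent in the members' promoters than in others. All are RefSeq sequences (GRCh38.p14), read 5′ to 3′ on the strand of the gene, with the palindrome (GCGCA, any base, then GCGC, in either orientation) in capitals. SDHD (chr11:112086753-112086782, plus strand) and SDHA (chr5:218144-218173, plus strand) are complex II genes, UQCRC1 (chr3:48609674-48609703, minus strand) belongs to complex III and ATP5F1C (chr10:7788145-7788174, plus strand) to complex V. NDUFB4 (chr3:120596167-120596196, plus strand) and NDUFA11 (chr19:5903869-5903898, minus strand) are accessory genes of complex I.
SDHD: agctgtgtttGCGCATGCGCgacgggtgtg
SDHA: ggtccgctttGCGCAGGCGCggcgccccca
UQCRC1: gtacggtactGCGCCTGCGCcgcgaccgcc
ATP5F1C: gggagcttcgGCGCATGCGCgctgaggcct
NDUFB4: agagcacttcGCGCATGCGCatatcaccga
NDUFA11: ccggtccccgGCGCGTGCGCgcgatccatg

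The palindrome lies 22 to 13 bases before the annotated start of ATP5F1C and 166 to 157 bases before that of SDHA, the nearest and farthest of these 6. Promoters of 66 of the 78 members could be matched to the RefSeq table, and each was searched on both strands over the 250 bases before the start. A gene was counted if any of its promoters in the table matched. The palindrome was found in 14 of the 66 (21.2%), against 6.2% of all 27305 genes in the table and 11.8% of the 10057 that passed the filter. The ETS-family letters CCGGAAGT were found in 11 (16.7%, against 4.13% of all genes in the table and 8.12% of those that passed the filter). The cAMP response element TGACGTCA was found in 4 (6.06%, against 2.03% and 3.37%), and the YY1 letters AAGATGGC in 1 (1.52%, against 1.64% and 2.32%). A match is a description of the letters in this window and is not a measured binding site.

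The members as a group differed little between the miR-146a arrays and the vector array. Differences are given throughout as miR-146a minus vector on the log2 scale of the deposited values, for the brightest probe set of each gene (the highest average of the group means). Over the 73 members above the filter the median difference was −0.0025, with quartiles of −0.055 and 0.032, against a median of 0.015 and quartiles of −0.067 and 0.117 over all 12444 genes. The differences of single members ran from −0.21 to 0.19, so the largest was 1.16-fold. A difference of under 0.1 in size was found for 60 of the 73 members (82.2%), against 53.1% of all genes. The members were also brighter, with a median log2 signal of 11.21 against 7.92 over all genes, and the part of brightness in the narrower range was not tested.

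Both miR-146a arrays lay above the vector array for 20 members and below it for 26, and the other 27 were split or tied. Over all genes, 40.2% were higher in both arrays and 28.8% lower, so the members leaned less to the higher side than the background. The split was not firm: a further quantile normalization gave 30 higher and 24 lower, and miR-146a replicate 1 lay above replicate 2 in 49 members and below it in 17. Using replicate 1 alone gave 35 members above the vector, and using replicate 2 alone gave 25. With no filter, 21 of all 78 genes were higher (33.1% of genes without a filter) and 27 lower (27.0%). No member differed by at least 0.25 in both arrays in either direction, where 6.51% of all genes were that much higher and 3.25% that much lower.

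No member passed limma's test with Benjamini-Hochberg adjustment over all genes at 0.05, and neither did any of the 12444 genes (0.0%). The smallest adjusted p among the members was 0.118, which was also the smallest over all genes. At an unadjusted limma p under 0.05 there were 8 members, 3 higher and 5 lower, where 23.6% of all genes stood. With 1 residual degree of freedom the test leans on a prior spread shared across genes, and 1610 genes (12.9%) had exactly equal values on the miR-146a arrays. The prior carried 0.55 degrees of freedom, and 10.3 when it was learned from genes whose replicates differed. With that second prior, 592 genes (4.76%) passed as higher and 294 (2.36%) as lower, again with no member among them, at a smallest limma adjusted p of 0.183. Under that setting the 95% intervals of the members' differences lay between −0.40 and 0.40, a change of 1.32-fold either way. Of these intervals 4 excluded 0, but they are not adjusted for the number of genes. The share over all genes was not counted, so no result is read from these 4. In bulk cells, fewer cells that carry a transcript and less of it per cell cannot be told apart.

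**Figure D1:**
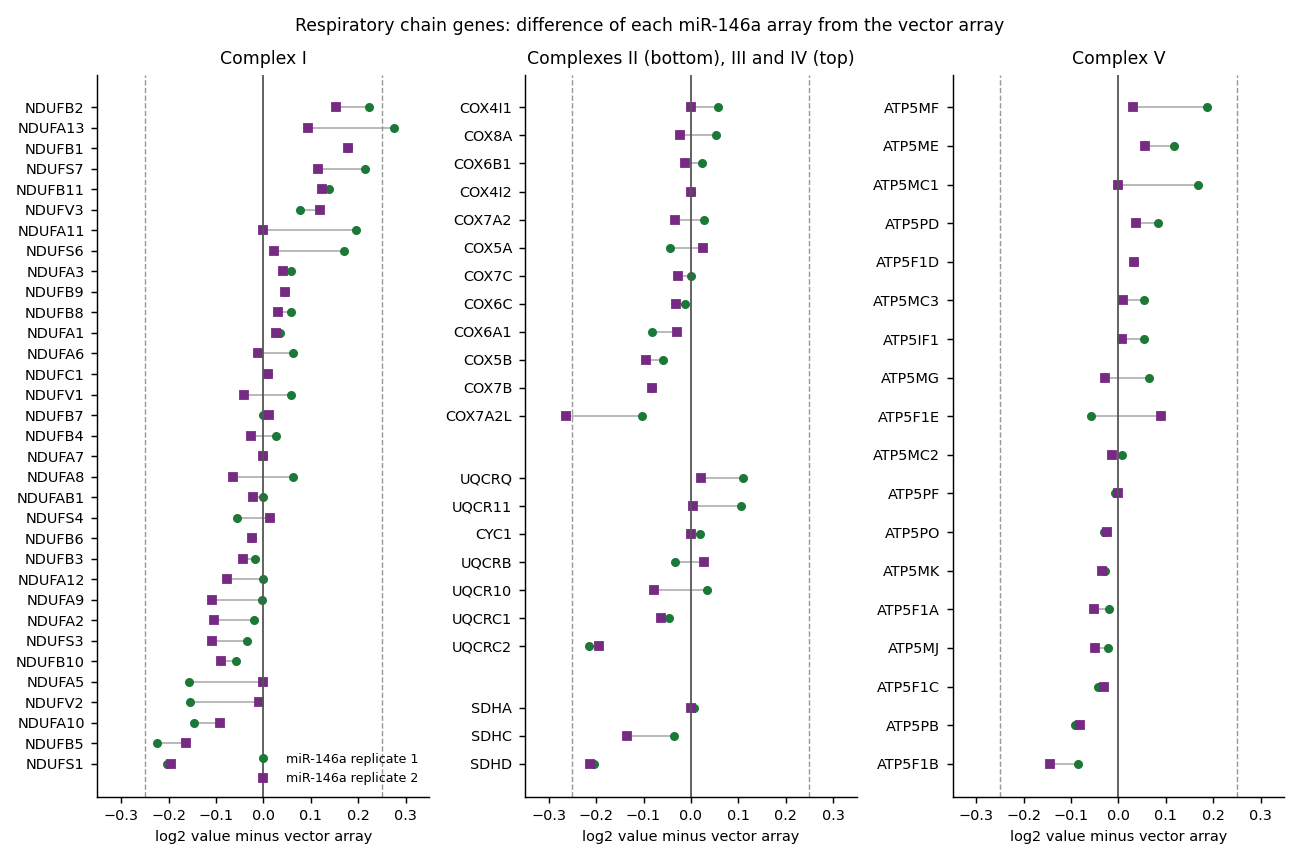
Log2 difference, miR-146a minus vector, of each member above the filter, grouped by complex; circles are replicate 1, squares replicate 2, and the dashed lines mark 0.25 in size. No member has both points beyond a dashed line; the means lie between −0.21 (SDHD) and 0.19 (NDUFB2).

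Complex I was measured through 33 members above the filter, 12 higher in both arrays and 10 lower (40.2% and 28.8% of all genes), with a median difference of 0.00050. Its nuclear core subunits, which carry the flavin and the iron-sulfur clusters or bind the quinone, were represented by 5 genes, of which 1 was higher and 3 were lower. The 28 accessory subunits, which stabilise the complex, had 11 higher and 7 lower with a median of 0.0032.

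NDUFS1, the largest core subunit and a carrier of iron-sulfur clusters, measured 9.99 on the vector array, then 9.79 and 9.80 with miR-146a. The vector array was above both. The difference was −0.20 (SD of the miR-146a arrays 0.005, n = 2 against 1), 1.15-fold lower, at a limma adjusted p of 0.118. Its other probe sets did not share this direction throughout, with differences of −0.070, 0.037 and 0.16.

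NDUFS7, the core subunit that holds the last iron-sulfur cluster before the quinone, measured 8.96 with the vector, then 9.17 and 9.08 with miR-146a. Both miR-146a arrays were above the vector, by 0.16 on average (SD 0.070), with a limma adjusted p of 0.408. NDUFS3 read 10.66, then 10.63 and 10.55, and NDUFV2, an iron-sulfur subunit of the NADH-binding arm, read 11.01, then 10.85 and 11.00. Both were lower in the miR-146a arrays, by 0.071 for NDUFS3 and 0.083 for NDUFV2 on average, and in NDUFV2 nearly all of it came from replicate 1. NDUFV1, which binds NADH and the flavin, had its vector value of 11.41 between its miR-146a values of 11.47 and 11.37.

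Among the accessory subunits, the 11 members with NDUFB symbols, which lie in the membrane arm, held both ends of the range. Of these, 5 were higher and 4 lower (40.2% and 28.8% of all genes). NDUFB2 measured 10.89 with the vector, then 11.11 and 11.04 with miR-146a, a difference of 0.19 (SD 0.050), 1.14-fold, at a limma adjusted p of 0.285. A second probe set of NDUFB2 gave 10.14, then 10.40 and 10.27, and a mean difference of 0.20. NDUFB1 measured 11.60, then 11.78 in both miR-146a arrays, a difference of 0.18 at an adjusted p of 0.118. For both genes every miR-146a value lay above the vector value.

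NDUFB11 measured 11.13, then 11.27 and 11.25, a difference of 0.13 (SD 0.011) at an adjusted p of 0.147. NDUFB5 went the other way, at 10.46, then 10.23 and 10.29, a difference of −0.19 (SD 0.044) at an adjusted p of 0.257. NDUFA10, an accessory subunit related to nucleoside kinases, read 10.56, then 10.42 and 10.47, a difference of −0.12. The miR-146a values of NDUFB5 and NDUFA10 were all below the vector. NDUFA13, also known as GRIM-19 and named here after its values were seen, measured 10.70, then 10.98 and 10.80, a difference of 0.18 with an SD of 0.128 and an adjusted p of 0.567. Its miR-146a arrays were further apart from each other than replicate 2 was from the vector.

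Complex II, succinate dehydrogenase, has its catalytic part in the matrix and is held in the membrane by SDHC and SDHD. SDHD had the most negative difference of the 73 members above the filter: it measured 10.91 with the vector, then 10.70 and 10.69 with miR-146a. The difference was −0.21 (SD 0.006), 1.16-fold lower, at a limma adjusted p of 0.118. When the spread was learned from genes whose replicates differed, the limma adjusted p was 0.183. The interval in that setting, not adjusted for the number of genes, was −0.40 to −0.02. SDHC, its partner, measured 9.84, then 9.80 and 9.71, a difference of −0.085 at an adjusted p of 0.626. For the brightest probe sets of both membrane anchors the miR-146a arrays lay below the vector. Differences of the other SDHC probe sets above the filter ranged from −0.34 to 0.020. SDHA, the flavin-bearing catalytic subunit, measured 11.64, 11.65 and 11.64 and differed by 0.0031.

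Complex III had 7 members above the filter, 2 higher and 2 lower (40.2% and 28.8% of all genes), with a median of −0.0033. UQCRC2, a core protein of the matrix side, measured 11.27 with the vector, then 11.06 and 11.08 with miR-146a, a difference of −0.20 (SD 0.015), 1.15-fold lower, at an adjusted p of 0.134. UQCRC1, the other core protein, measured 10.96, then 10.91 and 10.90, a difference of −0.055. Transcripts of both core proteins were lower in each miR-146a array. CYC1, the cytochrome that passes electrons to cytochrome c, measured 11.16, then 11.18 and 11.16. The small subunits UQCRQ (12.31, then 12.42 and 12.33) and UQCR11 (11.04, then 11.14 and 11.04) had differences of 0.066 and 0.055, and in both most of it came from replicate 1.

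**Figure D2:**
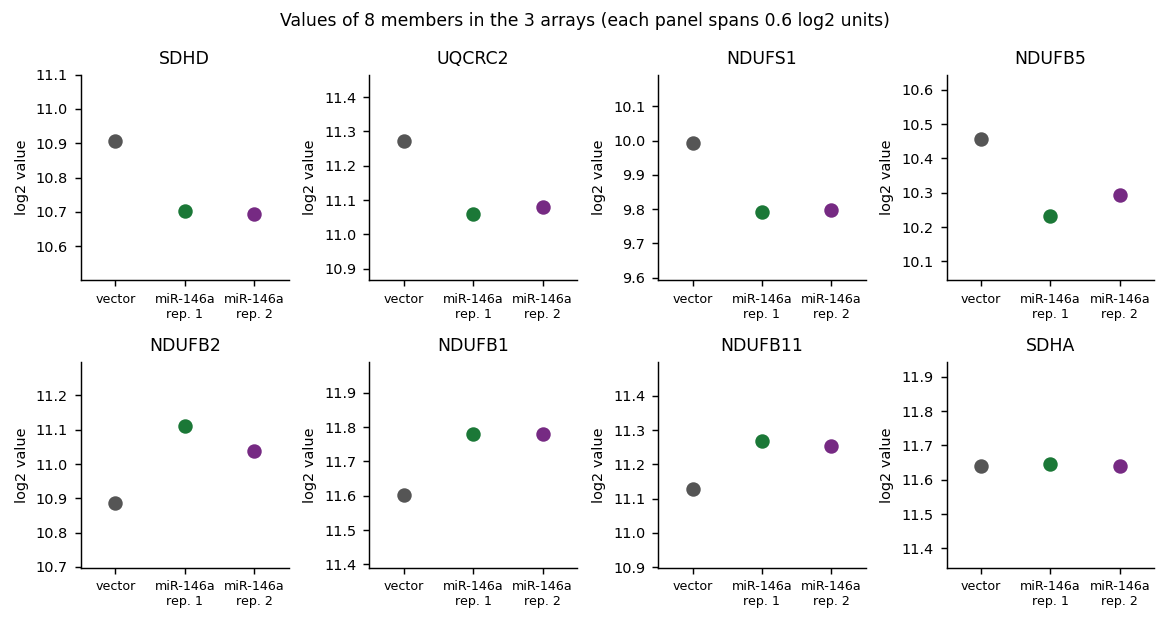
Log2 value of chosen members in each of the 3 arrays, 1 panel per gene; the vector has 1 array and miR-146a has 2. The miR-146a points of SDHD, UQCRC2 and NDUFS1 lie together below the vector point, and those of NDUFB1 together above it.

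Complex IV, cytochrome c oxidase, had 12 of its 17 measured genes above the filter, with 0 higher in both arrays and 5 lower (40.2% and 28.8% of all genes) and a median of −0.012. COX7A2L, which is known for joining complex III to complex IV, measured 10.83, then 10.72 and 10.56, a difference of −0.18 (SD 0.112) at an adjusted p of 0.521. COX7B measured 12.34, then 12.26 in both miR-146a arrays, a difference of −0.083 at an adjusted p of 0.142. COX5B measured 11.95, then 11.89 and 11.86, a difference of −0.077. In COX7A2L, COX7B and COX5B alike both miR-146a arrays were below the vector.

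Several complex IV subunits exist as a general form and a form found mainly in muscle, lung or testis, and the arrays had values for both. The general forms COX4I1 (12.67, then 12.73 and 12.67), COX6A1 (12.78, then 12.70 and 12.75), COX6B1 (12.11, then 12.14 and 12.10), COX7A2 (12.69, then 12.72 and 12.66) and COX8A (12.61, then 12.66 and 12.59) lay well above the filter in all arrays. Of these, COX6A1 alone had both miR-146a arrays on the same side of the vector, at −0.056. The tissue forms COX6A2 (4.43, then 4.59 and 4.54), COX6B2 (5.05 in each), COX7A1 (4.31 in each), COX7B2 (3.68, then 3.50 and 3.41) and COX8C (2.37, then 2.64 and 2.37) were the 5 members below the filter. COX4I2, the lung form, read 5.82 in each array, just above it. Signals of different probe sets are not on one scale, so these values place each gene against the filter and not against its partner. COX5A, which has no tissue form, measured 12.26, then 12.21 and 12.28. A dimmer COX5A probe set measured 7.49, then 7.67 and 7.61, a difference of 0.15, higher in both miR-146a arrays. COXFA4, the former NDUFA4 and a complex IV subunit that falls outside the rule by its present symbol, measured 12.05, then 12.00 in both miR-146a arrays.

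Complex V, the ATP synthase, had 18 members above the filter, 6 higher and 7 lower (40.2% and 28.8% of all genes), with a median of 0.0065. The catalytic F1 head, counted with the rotor subunits of its central stalk, was measured through 5 genes, 1 higher and 3 lower, with a median of −0.035. ATP5F1B, the catalytic beta subunit, measured 12.38 with the vector, then 12.29 and 12.23 with miR-146a, a difference of −0.11 (SD 0.042), 1.08-fold lower, at an adjusted p of 0.370. ATP5F1A, the alpha subunit, measured 12.69, then 12.67 and 12.64, a difference of −0.035. The miR-146a arrays were below the vector for both alpha and beta. ATP5F1D, the delta subunit of the rotor, was the one higher in both, at 9.76, then 9.79 in each miR-146a array.

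The membrane part and the stator were measured through 12 genes, 4 higher and 4 lower (40.2% and 28.8% of all genes), with a median of 0.0077. ATP5IF1, also counted among the complex V members, is not a subunit and differed by 0.030. Another ATP5IF1 probe set differed by 0.011. A dimmer one measured 8.52, then 8.33 and 8.29, a difference of −0.21, lower in both miR-146a arrays. ATP5PB, a stator subunit, measured 12.71, then 12.62 and 12.63, a difference of −0.087 at an adjusted p of 0.165. ATP5ME measured 11.70, then 11.81 and 11.75, a difference of 0.087, and ATP5PD, also of the stator, measured 11.74, then 11.82 and 11.78, a difference of 0.060. ATP5PB was thus below the vector in both arrays and ATP5ME and ATP5PD above it. The proton-carrying c subunit is made from 3 genes that encode the same mature protein. ATP5MC1 measured 10.12, then 10.28 and 10.12, ATP5MC2 measured 11.32, then 11.33 and 11.31, and ATP5MC3 measured 11.76, then 11.81 and 11.77. Of the c-subunit genes, ATP5MC1 had the largest mean difference, 0.084, which came from replicate 1.

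Where a gene had several probe sets, the weaker ones sometimes differed more than the one chosen. Of 123 member probe sets above the filter, 34 were higher in both arrays (36.7% of all probe sets) and 45 lower (32.6%). A difference of at least 0.25 in both arrays was found for 2 higher (6.05% of all probe sets) and 5 lower (5.98%). None of the 123 passed limma over all probe sets (0.0%), and with the spread learned from genes whose replicates differ 2 passed as higher (4.44%) and 4 as lower (4.68%), which are named here after their values were seen. By sign, the members' share was below that of all probe sets for the higher ones and above it for the lower ones. At 0.25 and with the spread from unequal replicates it was below in both directions.

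The lowest was a probe set of ATP5F1C, the gamma subunit that turns inside the F1 head, at 8.15 with the vector, then 7.31 and 7.24 with miR-146a. Its difference was −0.88 (SD 0.047), 1.83-fold lower, at a limma adjusted p of 0.126 and of 6.7e-05 with the spread from unequal replicates. The other 3 probe sets of ATP5F1C differed by only −0.037 to −0.020. A probe set of NDUFB4, an accessory subunit of the membrane arm, measured 7.76, then 7.13 and 7.22, a difference of −0.58 at adjusted p-values of 0.161 and 0.0018 under the same pair of limma settings. The main NDUFB4 probe set, at 12.44, then 12.46 and 12.41, differed by 0.00050. In both genes a dim probe set lay below the vector while the bright ones did not share the difference.

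A second probe set of ATP5PD measured 6.13, then 5.77 and 5.73, a difference of −0.37 against the 0.060 of its main one. A probe set of SDHC measured 7.94, then 7.60 and 7.61, a difference of −0.34, in the direction of its main one, while 4 other SDHC probe sets above the filter ranged from −0.23 to 0.020. Both passed only with the spread from unequal replicates, at limma adjusted p-values of 0.0239 for ATP5PD and 0.041 for SDHC.

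On the higher side, a probe set of NDUFV3, a small accessory subunit of the NADH-binding arm, measured 5.60, then 6.04 and 5.99, a difference of 0.41, with limma adjusted p-values of 0.140 and 0.0142. Its main probe set read 8.38, then 8.46 and 8.50. Both NDUFV3 probe sets were therefore above the vector in each miR-146a array. A second probe set of ATP5F1E, the F1 epsilon subunit, measured 5.62, then 6.10 and 5.95, a difference of 0.41 against 0.016 for the main one, with limma adjusted p-values of 0.283 and 0.0187. A second probe set of UQCRC2 measured 10.47, then 10.19 and 10.17, a difference of −0.29, and did not pass (limma adjusted p 0.125, and 0.083 with the other spread). Both UQCRC2 probe sets above the filter thus lay below the vector.

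Of the 31 members with several probe sets above the filter, 14 had all of them on one side of 0. In 8 of the 31 the differences of the probe sets spread over at least 0.25, against 34.3% of the 5922 such genes on the array. The median spread was 0.10 for the members and 0.18 over all such genes. Suffixes that mark probe sets shared between transcripts or open to cross-hybridisation (_s_at and _x_at) were carried by 42 of the 73 chosen probe sets.

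**Figure D3:**
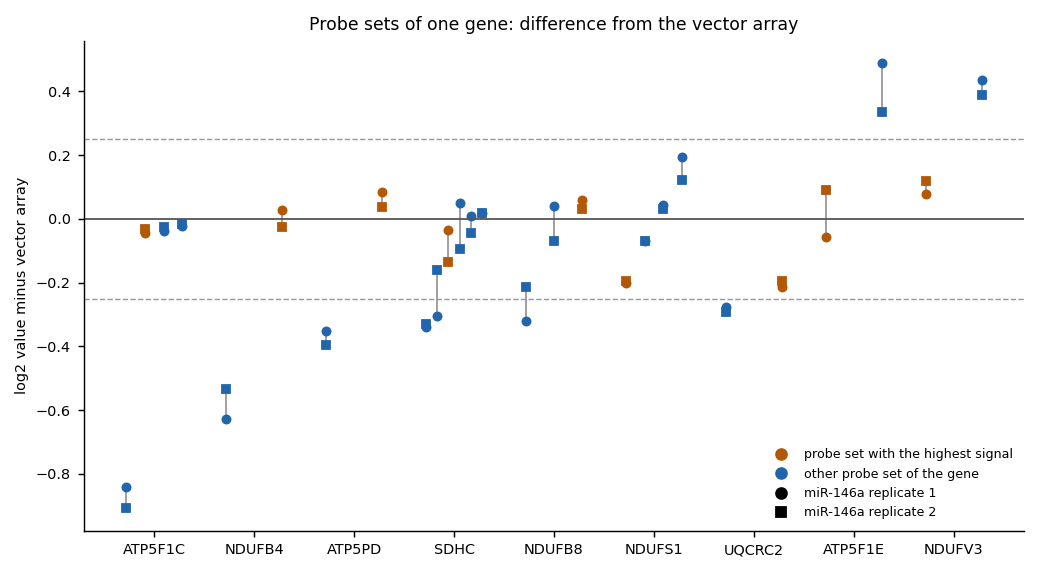
Log2 value minus vector array of every probe set above the filter for 9 members, orange for the brightest probe set of the gene and blue for the others; circles are replicate 1, squares replicate 2, and dashed lines mark 0.25 in size. The points beyond the dashed lines are blue, the lowest being the ATP5F1C probe set at −0.88 and the highest those of ATP5F1E and NDUFV3 at 0.41.

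Genes that work with the respiratory chain were followed in lists chosen by function. None of their genes passed limma over all genes in the main setting. Every limma adjusted p given for a gene of these lists is from the other setting, with the prior from unequal replicates. Those called below passed with the spread from unequal replicates, where 4.76% of all genes passed as higher and 2.36% as lower. As higher and lower, 3 and 1 of the 52 assembly factors passed, and 2 and 1 of the 19 transcription and biogenesis genes. For electron carriers it was 1 and 0 of 16, and for protein import 1 and 0 of 22. For the mitochondrial ribosome it was 1 and 0 of 75, and for the hypoxia-regulated genes 0 and 3 of 11. No result about a list is read from these counts. Counts of genes higher or lower in both arrays are to be read against 40.2% and 28.8% of all genes. The 7 mitochondrially encoded subunits with a probe set differed by under 0.1 each, 1 higher and 2 lower in both arrays. Their median difference was 0.059 for the mean of the miR-146a arrays, −0.0082 for replicate 1 and 0.048 for replicate 2. Of the 52 assembly factors, 20 were higher in both arrays and 9 lower, and the 17 genes of the citric acid cycle and pyruvate dehydrogenase had 3 higher and 9 lower, with medians of 0.012 and −0.093. Electron carriers outside the complexes (16 genes, 4 higher, 7 lower) and genes of cristae organisation (10 genes, 3 higher, 4 lower) had medians of −0.014 and −0.0053. COQ2, an enzyme of coenzyme Q synthesis, measured 8.75, then 9.05 and 9.09, a difference of 0.32 at a limma adjusted p of 0.0453.

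Among the assembly factors, TMEM186, which acts in complex I assembly, measured 7.15, then 7.70 and 7.73, a difference of 0.56 at a limma adjusted p of 0.0032. COA7, needed for complex IV, measured 7.64, then 8.14 in both, a difference of 0.50 at 0.0055. SCO2, which delivers copper to complex IV, measured 7.76, then 8.26 and 8.10, a difference of 0.42 at 0.0205. COX17, the copper chaperone that supplies SCO2, measured 5.88, then 5.47 and 5.46, a difference of −0.42 at 0.0139. SCO2 and COX17, which serve the same copper pathway, thus lay on opposite sides of the vector. Neither gene had another gene-specific probe set to compare, and that of COX17 was dim, not far above the filter. No result about the pathway is read from these values.

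The 19 genes of mitochondrial transcription and biogenesis had 12 higher and 4 lower (40.2% and 28.8% of all genes), with a median of 0.13. PPRC1, a coactivator related to PGC-1alpha, measured 8.16, then 8.80 in both, a difference of 0.64 (1.56-fold) at a limma adjusted p of 0.0017. PPARGC1A, which encodes PGC-1alpha itself, measured 6.64, then 5.99 and 6.05, a difference of −0.62 (1.53-fold lower) at 0.0023. These coactivators lay on opposite sides of the vector. TWNK, the helicase of mitochondrial DNA, measured 7.98, then 8.39 and 8.43, a difference of 0.43 at 0.0133.

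The 22 genes of protein import above the filter had 13 higher and 2 lower, with a median of 0.054. TOMM40, the pore of the outer membrane, measured 9.87, then 10.26 in both, a difference of 0.39 at a limma adjusted p of 0.0201. The 75 genes of the mitochondrial ribosome had 37 higher and 10 lower, with a median of 0.037. MRPS17 measured 9.71, then 10.13 and 10.00, a difference of 0.36 at 0.0405. For both lists more genes were above the vector than below it, where 40.2% and 28.8% of all genes stood.

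The 11 hypoxia-regulated mitochondrial genes above the filter, apart from COX4I2, had 1 higher and 8 lower (40.2% and 28.8% of all genes). Their median difference was −0.10. COXFA4L2, formerly NDUFA4L2, a gene induced by low oxygen, measured 7.26, then 6.33 and 6.47, a difference of −0.86 (1.82-fold lower) at a limma adjusted p of 4.0e-04. BNIP3L, a receptor for the removal of mitochondria, measured 9.77, then 9.20 in both, a difference of −0.57 at a limma adjusted p of 0.0028. PDK1, a kinase that shuts off pyruvate dehydrogenase, measured 9.16, then 8.66 and 8.69, a difference of −0.49 at 0.0069. In these genes both miR-146a arrays lay below the vector.

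The other abundant housekeeping machines gave a scale for the members. The 59 cytosolic ribosomal genes had 18 higher and 20 lower with a median of −0.0084, and 91.5% of them differed by under 0.1. The 27 genes of the constitutive proteasome had 14 higher and 3 lower with a median of 0.048. Of them, 77.8% differed by under 0.1, close to the 82.2% of the members. Over all genes, 40.2% were higher in both arrays, 28.8% were lower and 53.1% differed by under 0.1.

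**Figure D4:**
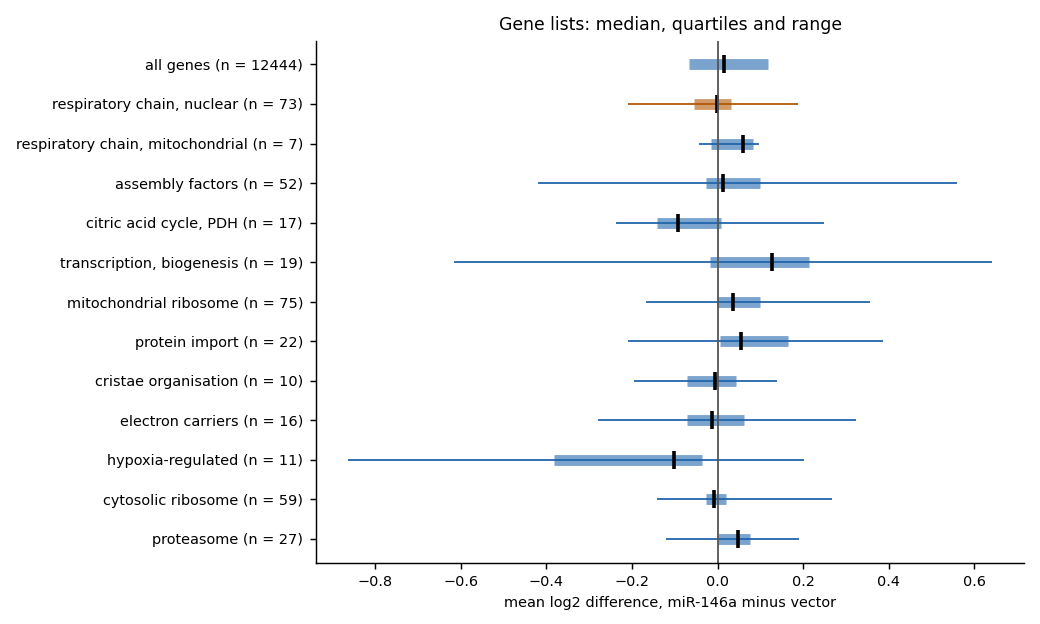
Log2 difference, miR-146a minus vector, over the genes above the filter in the members (orange), the companion lists and all genes (blue); ticks are medians, thick bars quartiles and thin lines the range, which is not drawn for all genes. The members span −0.21 to 0.19, and the list of mitochondrial transcription and biogenesis has the highest median, 0.13.

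Members with and without the NRF1 letters were also set side by side. The 13 members above the filter with the palindrome in the promoter window had a median difference of −0.028 and the 49 without it −0.0025. For the ETS letters the medians were −0.0034 (11 members) and −0.0025 (51 members), and for the cAMP response element 0.086 (4 members) and −0.0031 (58 members). All of these are smaller than 0.1 and are given with no test.

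The arrays were alike in their overall distribution, with medians of 5.13 with the vector, then 5.14 and 5.12 with miR-146a, and values from 1.95 to 14.60. Control probe sets for the 5′ ends of ACTB and GAPDH were lower in the miR-146a arrays, by 0.29 and 0.18 for ACTB and by 0.32 and 0.30 for GAPDH, while those for the 3′ ends differed by no more than 0.05. Control probe sets for 18S ribosomal RNA were higher by 0.60 to 0.94. The 5′ and 18S controls moved with the groups, on average by more than the brightest probe set of any member. Their part in the results was not tested. All 8 colon epithelial markers were above the filter, with CDH17 at 5.86, then 5.39 and 5.24. Of the markers of other cells, 2 of 4 for leukocytes, 2 of 5 for fibroblasts, 1 of 4 for endothelium and 1 of 4 for muscle were above it. Those of leukocytes were not dim, with a median log2 signal of 9.57 against 11.12 for the colon epithelial markers. The fibroblast markers had a median of 6.20, and the endothelium and muscle markers read 5.90 and 5.60.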

How the data were processed

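Total RNA from transduced HT29 cells was labelled and hybridised to Affymetrix arrays, 1 for the empty vector and 2 for miR-146a, per the labels' protocols. The authors' deposited values are on a log2 scale, and the submitters' processing notes name RMA without a version. Probe sets were named from the platform annotation, which can be old: 41091 of 54613 non-control probe sets had 1 gene, and 13522 had several or none and were left out.

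Genes were represented by their brightest probe set (highest average of the group means), if above the median signal (log2 5.13). Differences were tested with limma 3.58.1 (R 4.3.3, lmFit, eBayes, two-sided, Benjamini-Hochberg over 12444 genes, threshold 0.05). limma was also run on simulated data, and the outcome of that run is not given here. Alternatives changed the probe set, the filter, the normalization, limma's prior and the replicates. Named genes were the complex II genes, nuclear core subunits of complex I, CYC1 and core proteins of complex III, subunits with tissue isoforms, F1 alpha and beta, and the 3 members with the highest and lowest differences per complex, taken by the smaller of the array differences; others named are said to be chosen later or belong to companion lists. Members and lists were chosen with earlier results of these data known. No detection calls were used; the number of arrays limits the precision.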

Additional observations from a re-analysis of the deposited data

How the results depend on the processing

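No member passed limma in any setting that changed one choice, and the smallest adjusted p of a member lay between 0.0936 (no filter) and 0.196 (mean of a gene's probe sets). With every probe set taken separately and the prior from unequal replicates together, a setting chosen after seeing the data, 6 member probe sets of 2058 in all passed, 2 higher and 4 lower, the smallest adjusted p being 6.7e-05. The number of genes passing over the whole array was 0 except when limma's prior came from genes with unequal replicates, which gave 886. The median difference of −0.0025 became −0.011 with the mean of all probe sets, −0.013 without _x_at and _s_at probe sets and 0.011 with quantile normalization, and −0.012 to 0.0 with a replicate left out. With every probe set taken separately, 34 were higher and 45 lower in both arrays; with a replicate left out the counts ran from 25 to 35 higher and 32 to 39 lower. Differences of at least 0.25 in both arrays, 0 in the main setting, were found for 2 higher and 5 lower with every probe set, 1 and 2 with the mean of probe sets, and 1 and 4 without _x_at and _s_at probe sets. With a replicate left out there were 0 to 1 each way, NDUFA13 higher without replicate 2 and COX7A2L lower without replicate 1. Of the 38 named genes above the filter, the sign changed for 5 with the mean of probe sets, 3 with quantile normalization, 1 with cyclic loess, 4 without replicate 1 and 2 without replicate 2, and for 5 of the 27 left without _x_at and _s_at probe sets. Among them were NDUFS1 at 0.037 and SDHC at 0.020 without those probe sets and ATP5PD at −0.16 with the mean; the cause was not tested. The filters and priors leave a gene's difference as it is. No paired analysis was possible because the vector group has 1 array and no replicate number. limma could not be fitted without a replicate, which leaves no residual degrees of freedom.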

Other observations

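After the values were seen, the members were listed by chromosome. The 9 members on chromosome 19 had 5 higher and 0 lower in both arrays, with a median difference of 0.049, and the 64 members elsewhere had 15 higher and 26 lower, with a median of −0.011. Over all 884 genes of chromosome 19 above the filter, 434 were higher and 178 lower, with a median of 0.042, close to that of the members there.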
